A study of Saccharomyces cerevisiae with 14 samples.

Results

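The genes of budding yeast were compared for how much their transcript level depended on the amino-terminal tail of histone H3 and on that of histone H4. The members are all 14 arrays of the series and all 9275 probe sets (short-probe groups, each matched to a transcript) that remain of 9335 once 60 control probe sets are set aside. For each probe set the H3 tail effect is the log2 signal of the H3 tail deletion strain minus that of its wild type, the H4 tail effect is the same for the H4 tail deletion strain, and the quantity described is the H3 tail effect minus the H4 tail effect. A positive value means that the transcript stood higher after loss of the H3 tail than after loss of the H4 tail, each relative to its own wild type.

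There were 4 groups of Saccharomyces cerevisiae arrays. H3del (4 arrays) carried H3del(1-28), a histone H3 without residues 1 to 28, and H3WT (4 arrays) carried full-length H3, in both cases on a plasmid marked with LEU2. H4del (3 arrays) carried H4del(2-26), a histone H4 without residues 2 to 26, and H4WT (3 arrays) carried full-length H4, in both cases on a plasmid marked with TRP1. All strains were congenic and were harvested in mid-log growth from complete synthetic medium, without leucine and uracil for H3del and H3WT and without tryptophan and uracil for H4del and H4WT. The plasmid marker and the medium therefore differ between H3WT and H4WT as well, and a difference between these wild types cannot be told apart from those. The H3 and H4 tail effects were likewise measured with different markers and media. A difference between the tail effects therefore cannot be told apart from tail effects that depend on marker or medium. The labels state neither how many clones a strain stands for nor whether each array had a culture of its own. P-values therefore measure the spread among arrays alone, which may be technical. In bulk RNA, fewer cells of a type and less RNA per cell cannot be told apart.

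The tails are the flexible ends of the histones and carry most of the acetylation and methylation sites of the nucleosome. In yeast they are known for gene silencing. The Sir proteins, which keep the silent mating-type loci HML and HMR and the telomeres inactive, bind histone tails, that of H4 among them. Both tails contact repressors such as Tup1. In an alpha cell the alpha1 protein switches on alpha-specific genes and the alpha2 protein switches off a-specific genes, and where the a1 protein of HMR is made as well, a1 with alpha2 represses the haploid-specific genes and alpha1.

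Each array gave a linear signal, scaled by the submitters so that the 2% trimmed mean lay between 1500.8 and 1501.2 on every array, and the median signal lay between 421 and 544. The arrays were hybridized on 5 days. Day 4 held replicate 3 of every group and is the only day with all 4 groups, days 1 and 5 held H3del and H3WT arrays only, and days 2 and 3 held H4del and H4WT arrays only. Both wild types carried high signals of the alpha-cell markers (MF(ALPHA)1 at 19747 ± 932 in H3WT and 22123 ± 4137 in H4WT, SD, n = 4 and 3). The mean log2 signal of the 10 control probe sets for ribosomal RNA was 9.57 ± 0.64 in H3del and 8.27 ± 0.76 in H3WT (SD, n = 4 each), and 11.1 ± 0.50 in H4del and 8.90 ± 0.93 in H4WT (SD, n = 3 each).

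Of 6492 probe sets bright enough to be tested, 239 (3.68%) differed between the tail effects at an adjusted p under 0.05. This was in a limma fit over all arrays without a block, the main fit, which does not use any pairing of arrays. The H3 tail effect was the higher one for 156 (2.4%) and the lower one for 83 (1.28%). Without adjustment 1309 probe sets had p under 0.05. With the replicate number as a block 1056 probe sets (16.3%) were called, and with the hybridization day as a block 1078 (16.6%). All 239 were among each of these and had the same sign on day 4 alone. The blocks and day 4 use arrays that gave the 239 calls, so this is no independent check. Leaving out single arrays moved the count by more than 1.5 times in 8 cases: 137 without H3del replicate 1, 131 without H3del replicate 2, 156 without H3del replicate 4, 125 without H4del replicate 1, 117 without H4del replicate 2, 131 without H4WT replicate 1, 132 without H4WT replicate 2 and 469 without H4WT replicate 3. The share of higher calls was 65.3%, against 51.8% of 369 calls after quantile normalization and 55.0% of 278 calls after median centring. The median of all tested probe sets was 0.10 as deposited, 0.04 after quantile normalization and 0.02 after median centring. With each of the 5121 tested genes counted by its brightest probe set, 135 genes (2.64%) were called higher and 46 (0.898%) lower. Each probe set was also tested in the comparisons that enter the difference, all of which share arrays with it. H3del differed from H3WT in 498 probe sets (7.67%; 1047 with the replicate block), H4del from H4WT in 1134 (17.5%; 2130 with the replicate block), and H3WT from H4WT in 221 (3.4%; 511 with the replicate number as a block across strains, since a block within each histone's strains cannot give this comparison).

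**Figure D1:**
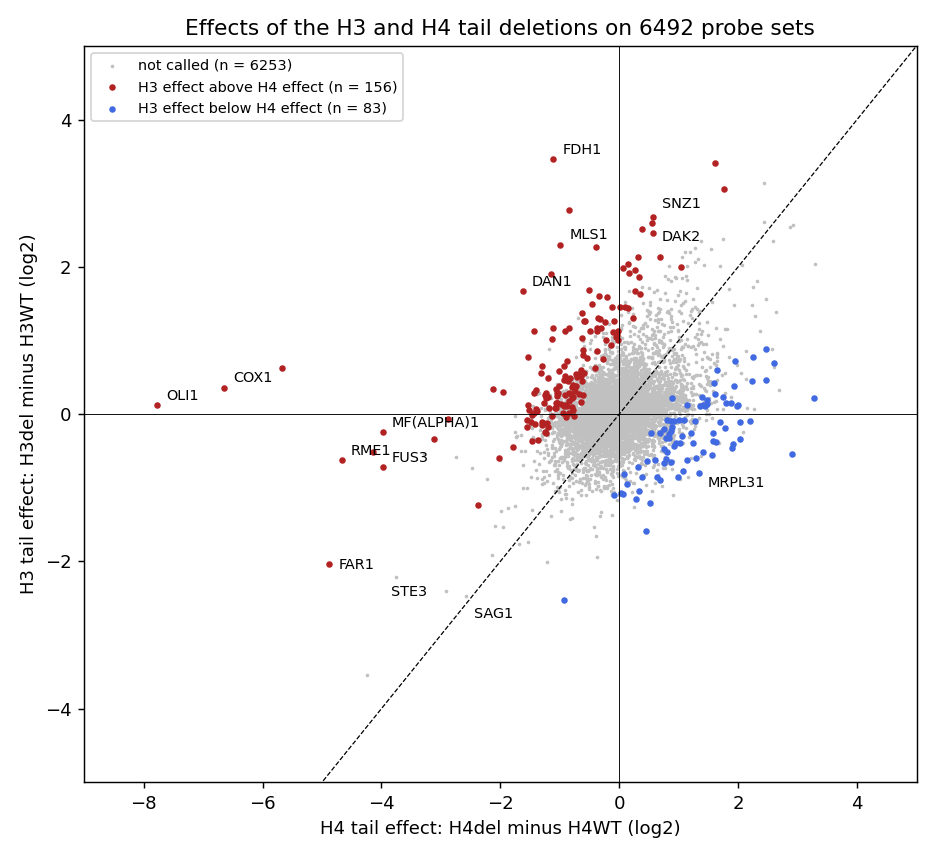
H3 tail effect (vertical axis, H3del minus H3WT, log2) against H4 tail effect (horizontal axis, H4del minus H4WT, log2) for the 6492 tested probe sets, with the 156 probe sets called higher in red, the 83 called lower in blue and equal effects on the dashed line. OLI1, COX1, RME1, MF(ALPHA)1 and FUS3 lie far to the left, with H3 tail effects that are small beside their H4 tail effects. FDH1 and MLS1 lie at the upper left, and SAG1 and STE3 lie near the dashed line.

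The probe sets called in the fit without a block were sorted by which deletion passed its own test in that fit. This is a description, since the effects and their difference come from the same arrays. A change in 1 deletion alone or only means that the other was not called, which does not show that it had no effect. The largest class, 88 probe sets, was lower in H4del and not called in H3del, with a median H4 tail effect of -1.10, a median H3 tail effect of 0.15 and a median difference between H3WT and H4WT of -0.10. The second, 60 probe sets, was higher in H4del and not called in H3del, with median effects of 1.37 for H4 and -0.19 for H3. Another 48 were higher in H3del and not called in H4del (median H3 tail effect 1.34, median H4 tail effect -0.13), and 14 were lower in H3del and not called in H4del. In 14 probe sets both deletions were called, in opposite directions: 11 were higher in H3del and lower in H4del, and 3 lower in H3del and higher in H4del. Another 10 were called the same way in both by unequal amounts (7 higher and 3 lower in both), and 5 were called in neither. Where H3del alone was higher, the wild types were also apart: the median of H3WT minus H4WT was -0.98, and the median of H3del minus H4del was 0.53. In the class lower in H4del alone the median of H3del minus H4del was 1.13. A difference of the tail effects equals the difference between the mutants minus the difference between the wild types, so H3WT minus H4WT is given beside the main genes below.

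Haploid-specific genes, which both haploid mating types express and a1-alpha2 represses, had the largest share of called members among the lists with at least 10 tested genes. Of 12 tested members 9 were called higher and 0 lower, against 2.64% higher and 0.898% lower over all tested genes (11.7% and 4.69% with the replicate block), and the median over the list was 2.01, against 0.17 over all tested genes. Of the 12, 3 were called lower in H3del than in H3WT, against 2.6% of all tested genes, and all 12 in H4del than in H4WT, against 11.0% (median effects -0.61 for H3 and -2.55 for H4), while the median of H3WT minus H4WT was 0.06. RME1, a repressor of entry into meiosis, had signals of 2409, 2212, 1701 and 3229 on the H3del arrays, 3199, 3723, 3187 and 4389 on the H3WT arrays, 68.9, 68.6 and 169.9 on the H4del arrays, and 2734, 2646 and 3042 on the H4WT arrays. The H4del arrays stood apart from all others, and H3del overlapped H3WT. The difference of the tail effects was 4.04 ± 0.38 (SE, adjusted p = 2.53e-05), made of -0.62 ± 0.25 for H3 and -4.67 ± 0.29 for H4, with H3WT minus H4WT at 0.36 ± 0.27.

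FUS3, the protein kinase of the mating pathway, had signals of 809.9, 973, 776 and 756 on the H3del arrays, 1715, 1797, 1031 and 1106 on the H3WT arrays, 61.0, 49.8 and 86.6 on the H4del arrays, and 1277, 1575 and 1003 on the H4WT arrays. H4del again lay far below every other array, and the H3del arrays also lay below all H3WT arrays. The difference was 3.26 ± 0.34 (SE, adjusted p = 7.57e-05), with tail effects of -0.72 ± 0.22 for H3 and -3.98 ± 0.26 for H4. A second bright probe set of FUS3 gave 3.62 and a dim one, in a fit without the filter, 0.37. STE18, the gamma subunit of the pheromone-receptor G protein, had signals of 534, 524, 534 and 466 on the H3del arrays, 715, 663, 486 and 792 on the H3WT arrays, 30.1, 48.2 and 33.6 on the H4del arrays, and 364, 530.0 and 463 on the H4WT arrays. Its H3del and H3WT arrays overlapped, and H4del was below all of them. The difference was 2.77 ± 0.29 (SE, adjusted p = 7.82e-05).

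FAR1, which arrests the cell cycle in response to pheromone, was lower in both deletion strains by unequal amounts. It had signals of 486, 490.4, 441 and 808 on the H3del arrays, 2414, 2268, 1607 and 2955 on the H3WT arrays, 94.1, 90.7 and 74.7 on the H4del arrays, and 4706, 4929 and 1174 on the H4WT arrays. H3del lay below both wild types and H4del lay below H3del, without overlap, and H4WT replicate 3 was well below the other H4WT arrays. The H3 tail effect was -2.03 ± 0.36, the H4 tail effect -4.88 ± 0.42, and the difference 2.85 ± 0.56 (SE, adjusted p = 0.0127). STE4, the beta subunit of the same G protein, had its lowest arrays in H4del too, and its H3del arrays overlapped H4WT, with means of 3411 ± 355 in H3del, 5184 ± 739.9 in H3WT, 1173 ± 194 in H4del and 4886 ± 1223 in H4WT (SD), and a difference of 1.43 ± 0.28 (SE, adjusted p = 0.0127).

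NEJ1, a regulator of DNA end joining, and RDH54, a recombination helicase, were lower in H4del alone. NEJ1 had a difference of 2.81 ± 0.37 (adjusted p = 0.000632) with an H3 tail effect of -0.06 ± 0.24. RDH54 had 2.47 ± 0.29 (adjusted p = 0.000224) with an H3 tail effect of 0.35 ± 0.19. The pathway scaffold STE5 (1.35 ± 0.32, adjusted p = 0.028) and the bud-site protease AXL1 (1.47 ± 0.33, adjusted p = 0.0223) were called with smaller values. STE5 lost its call without H3del replicate 1 or 2, H4del replicate 2, or H4WT replicate 2 (adjusted p 0.0641 to 0.087). AXL1 lost it without H3del replicate 1, H4del replicate 2, or H4WT replicate 1 or 2 (adjusted p 0.0513 to 0.065). The other 3 members were not called. GPA1, the alpha subunit of the G protein, gave 1.36 ± 0.60 (adjusted p = 0.22, and 0.0165 with the replicate block). HO, the mating-type switching endonuclease, gave 1.54 ± 0.59 (adjusted p = 0.151, 0.0386 with the replicate block, and 0.0135 without H4WT replicate 3). STE12, the transcription factor of the pathway, gave 0.35 ± 0.31 (adjusted p = 0.557), with a 95% interval of -0.31 to 1.02. Of the 13 genes listed as induced by pheromone through STE12, 5 were called lower in H3del, against 2.6% of all tested genes. In H4del 6 were called lower, against 11.0%, and the median effects were -0.41 for H3 and -0.32 for H4. For the difference of the effects the 13 genes had 0 calls in limma and a median of 0.06, which was -0.02 after median centring. Of these 3 had an unadjusted p under 0.05, against 20.4% of all tested genes. With the replicate block 2 were called lower, against 4.69% of all tested genes. The pheromone-regulated gene PRM4 came closest at -1.02 ± 0.29 (adjusted p = 0.0636, 0.0406 with the replicate block, 0.0238 to 0.032 without H4WT replicate 3 or H4del replicate 3).

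The alpha-specific genes split. MF(ALPHA)1, the main gene for the alpha-factor pheromone, had signals of 16271, 15157, 19560.5 and 16184 on the H3del arrays, 20059.7, 20489, 20057 and 18383 on the H3WT arrays, 1365, 1239 and 1513 on the H4del arrays, and 17731, 22693 and 25946 on the H4WT arrays. The H4del arrays lay below every other array and H3del overlapped H3WT. The H3 tail effect was -0.24 ± 0.13 and the H4 tail effect -3.98 ± 0.15, a difference of 3.74 ± 0.20 (SE, adjusted p = 3.32e-08). The other 3 members were lower in both deletion strains and their difference was not called. SAG1, the alpha-agglutinin of the cell surface, had signals of 1022, 1148, 1027 and 1362 on the H3del arrays, 6467, 7428, 6615 and 5154 on the H3WT arrays, 954, 794 and 1063 on the H4del arrays, and 6015, 6506 and 4535 on the H4WT arrays. The deletion arrays of both histones overlapped and lay below both wild types. The difference was 0.10 ± 0.27, with a 95% interval of -0.47 to 0.67. The a-factor receptor STE3 gave 0.52 ± 0.27 (95% interval -0.06 to 1.10) with tail effects of -2.40 for H3 and -2.92 for H4, and the minor alpha-factor gene MF(ALPHA)2 gave 0.69 ± 0.32 (95% interval 0.02 to 1.36) with -3.55 and -4.24. An interval that holds 0 does not show that the tails act alike on a gene. AFB1, which encodes a secreted a-factor barrier of alpha cells, was lower in both and more so in H4del, with a difference of 1.14 ± 0.23 (adjusted p = 0.0138).

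**Figure D2:**
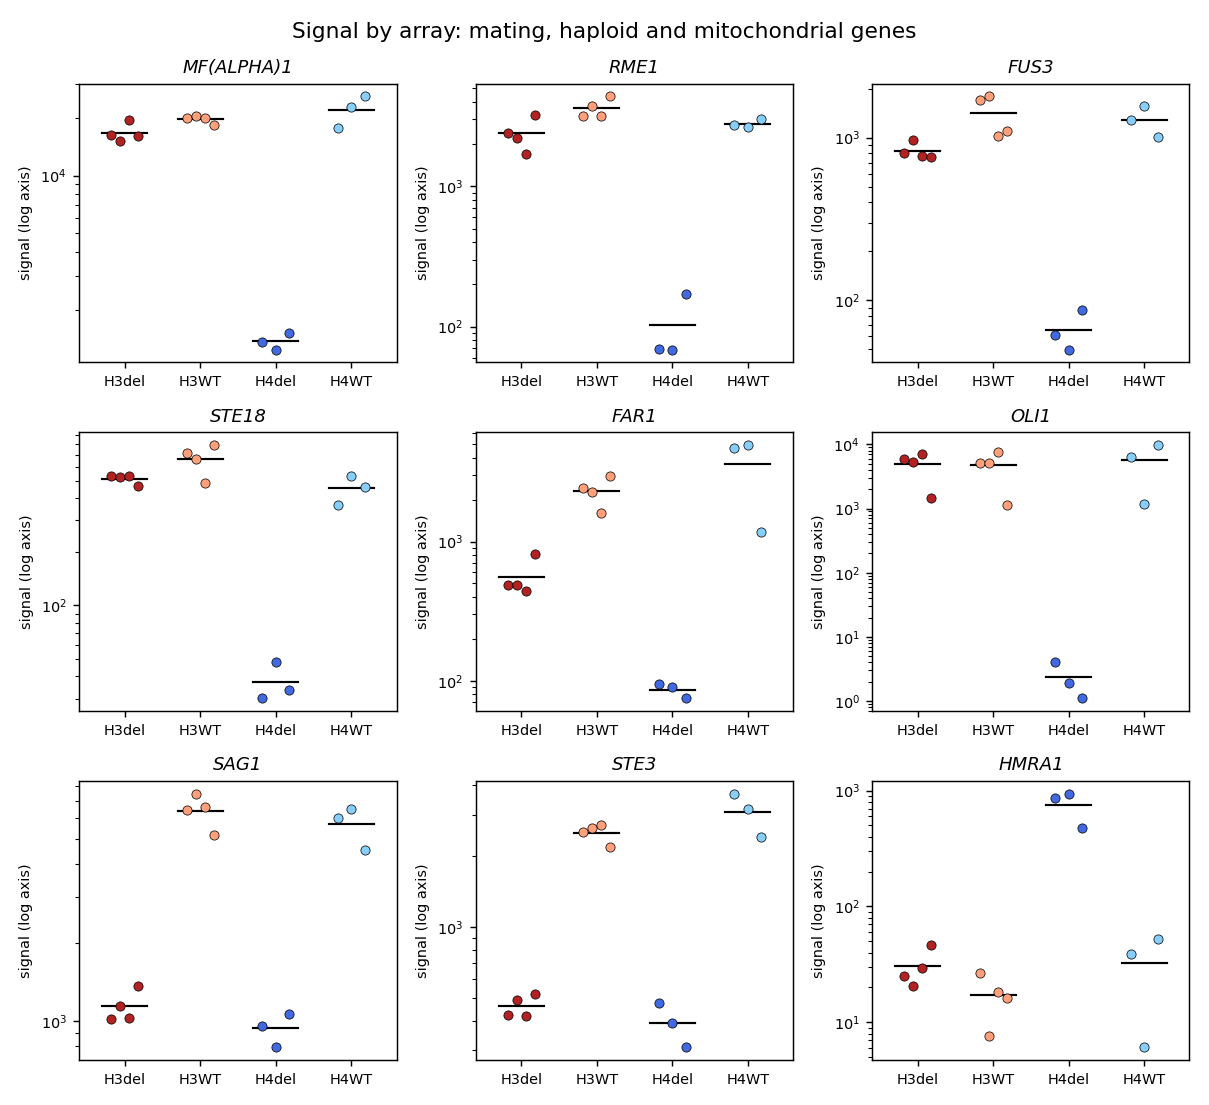
Signal (log axis) on each array for 9 genes, with H3del, H3WT, H4del and H4WT from left to right, 1 point per array and a bar at the group mean. H4del is far below the other groups for MF(ALPHA)1, RME1, FUS3, STE18 and OLI1, and for FUS3 H3del also lies below H3WT by a smaller amount. Both deletion groups are low for SAG1 and STE3, FAR1 falls in between, and HMRA1 is high in H4del alone.

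The silent a1 gene had the opposite pattern. The brightest probe set of HMRA1, the a1 gene at HMR, had signals of 25, 20.7, 29.7 and 46.4 on the H3del arrays, 26.7, 7.60, 18.1 and 16.3 on the H3WT arrays, 862, 935 and 476 on the H4del arrays, and 39.0, 6.10 and 52.8 on the H4WT arrays. The H4del arrays stood above every other array and the other groups overlapped. Its mean fell under the brightness filter, and in a fit without the filter, where 2.94% of 9275 probe sets were called, the difference was -3.58 ± 0.50 (SE, adjusted p = 0.00151). Its other probe sets gave -1.81 ± 0.26 (adjusted p = 0.00174) and -0.88 ± 0.40 (adjusted p = 0.26). Probe sets that MAT and HML share showed no called difference. The pair shared by MATALPHA1 and HMLALPHA1 gave 0.67 ± 0.33 and 0.67 ± 0.32, and the pair shared by MATALPHA2, HMLALPHA2 and HMRA2 gave -0.42 ± 0.22 and -0.85 ± 0.41. Of the a-specific genes, which alpha2 represses, 4 were bright enough to be tested. Of these 1 was called higher, also with the replicate block, against 2.64% of all tested genes (11.7% with the block). This was BAR1, the protease that degrades alpha-factor, at 2.14 ± 0.55 (adjusted p = 0.0419), which lost its call without H3del replicate 1, 2 or 4, H3WT replicate 4, H4del replicate 1, 2 or 3, or H4WT replicate 1 or 2 (adjusted p 0.0601 to 0.0972). Neither of its tail effects was called by itself (1.02 ± 0.36 for H3 and -1.13 ± 0.41 for H4). The a-factor genes MFA1 and MFA2 gave -0.32 ± 0.46 and 0.09 ± 0.45, and the a-factor exporter STE6 gave 0.23 ± 0.29.

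The largest values of all were those of genes in mitochondrial DNA. OLI1, subunit 9 of the mitochondrial ATP synthase, had signals of 5943, 5383, 7071 and 1485 on the H3del arrays, 5193, 5129.5, 7717 and 1156 on the H3WT arrays, 4.0, 1.90 and 1.10 on the H4del arrays, and 6414, 1174 and 9737 on the H4WT arrays. COX1, subunit 1 of cytochrome c oxidase, had signals of 2471, 2021, 4257 and 1325 on the H3del arrays, 1653, 1611, 3695 and 1046 on the H3WT arrays, 4.80, 4.10 and 4.60 on the H4del arrays, and 1894, 1181 and 4289 on the H4WT arrays. On every H4del array both genes were below 5, and on every other array they were above 1000. The difference was 7.90 ± 0.99 for OLI1 (SE, adjusted p = 0.000424) and 7.01 ± 0.64 for COX1 (SE, adjusted p = 2.06e-05), and these values depend on the offset of 16.9 added to every signal. Of 19 mitochondrially encoded genes that had their own probe set, 17 were below the brightness filter. In the fit without the filter COX3 gave 2.09 ± 0.39 (adjusted p = 0.0126) and COX2 1.25 ± 0.28 (adjusted p = 0.027), and COB (1.96 ± 0.60, adjusted p = 0.0916), ATP6 (1.71 ± 0.71, adjusted p = 0.211) and VAR1 (0.45 ± 0.54, adjusted p = 0.704) were not called. Over all 19 the difference was above 0 for 17 and below 0 for 2, and the H4del mean was below the H4WT mean for 15. Most of these signs come from probe sets under the brightness filter, and they were not tested as a set. The median difference over all tested probe sets was itself above 0, at 0.10. Every H4 tail effect given here, above and below, thus rests on H4del arrays on which OLI1 and COX1 were near 0. The part of this in other differences, those of the mating genes among them, was not tested.

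Nuclear genes for mitochondrial proteins gave smaller values. Of 12 nuclear genes of the ATP synthase 2 were called higher (5 with the replicate block), against 2.64% of all tested genes (11.7% with the block), with a median of 0.55. ATP16, the delta subunit, had means of 7930.3 ± 447 in H3del, 8815 ± 953 in H3WT, 3118 ± 989.6 in H4del and 7418 ± 467 in H4WT (SD), and a difference of 1.15 ± 0.26 (adjusted p = 0.0242). It lost the call without H4WT replicate 2 (adjusted p of 0.0586). ATP18, another subunit of the complex, gave 0.98 ± 0.23 (adjusted p = 0.0261). ATP18 lost the call without H3del replicate 1 or 2, H4del replicate 1 or 2, or H4WT replicate 1 or 2 (adjusted p 0.0605 to 0.0813). In both genes the H4del mean was below that of all other groups. The gamma subunit gene ATP3 gave 0.85 ± 0.24 (adjusted p = 0.06, 0.0267 with the replicate block, 0.0478 without H4WT replicate 2). The epsilon subunit gene ATP15 gave 0.54 ± 0.20 (adjusted p = 0.141). Of 26 nuclear genes of the respiratory chain 0 were called in limma, and 7 had an unadjusted p under 0.05, against 20.4% of all tested genes. With the replicate block 5 were called higher and 1 lower, against 11.7% and 4.69%. The closest was SDH2, a subunit of succinate dehydrogenase, at 1.04 ± 0.28 (adjusted p = 0.05, 0.00496 with the replicate block, and 0.0214 to 0.0483 without H3del replicate 3 or H4del replicate 3). Of 53 genes for mitochondrial ribosomal proteins 3 were called lower and 0 higher (9 lower with the replicate block), against 0.898% lower over all tested genes (4.69% with the block), with a median of -0.34. The clearest was MRPL31, a protein of the large subunit, with signals of 793, 831, 632 and 896 on the H3del arrays, 1472, 1584, 1004 and 1498 on the H3WT arrays, 3626, 2976 and 3188 on the H4del arrays, and 1342, 1603 and 959 on the H4WT arrays. Every H3del array was below every H3WT array and every H4del array above every H4WT array. The tail effects were -0.80 ± 0.20 for H3 and 1.34 ± 0.23 for H4, and their difference -2.14 ± 0.30 (SE, adjusted p = 0.00108). MRP20 (-1.08 ± 0.24, adjusted p = 0.0223) and MRPL13 (-0.95 ± 0.24, adjusted p = 0.035) were higher in H4del only. MRP20 lost its call without H3del replicate 1 or 2, H4del replicate 1, or H4WT replicate 2 (adjusted p 0.0505 to 0.0644). MRPL13 lost it without H3del replicate 1, 2 or 4, H3WT replicate 1 or 2, H4del replicate 1 or 2, or H4WT replicate 1 (adjusted p 0.0536 to 0.0946). MRP10, of the small subunit, gave -1.11 ± 0.34 (adjusted p = 0.0804, 0.00441 with the replicate block, 0.0346 without H3WT replicate 3). MPC2, of the mitochondrial pyruvate carrier, gave -0.30 ± 0.23 (adjusted p = 0.497).

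**Figure D3:**
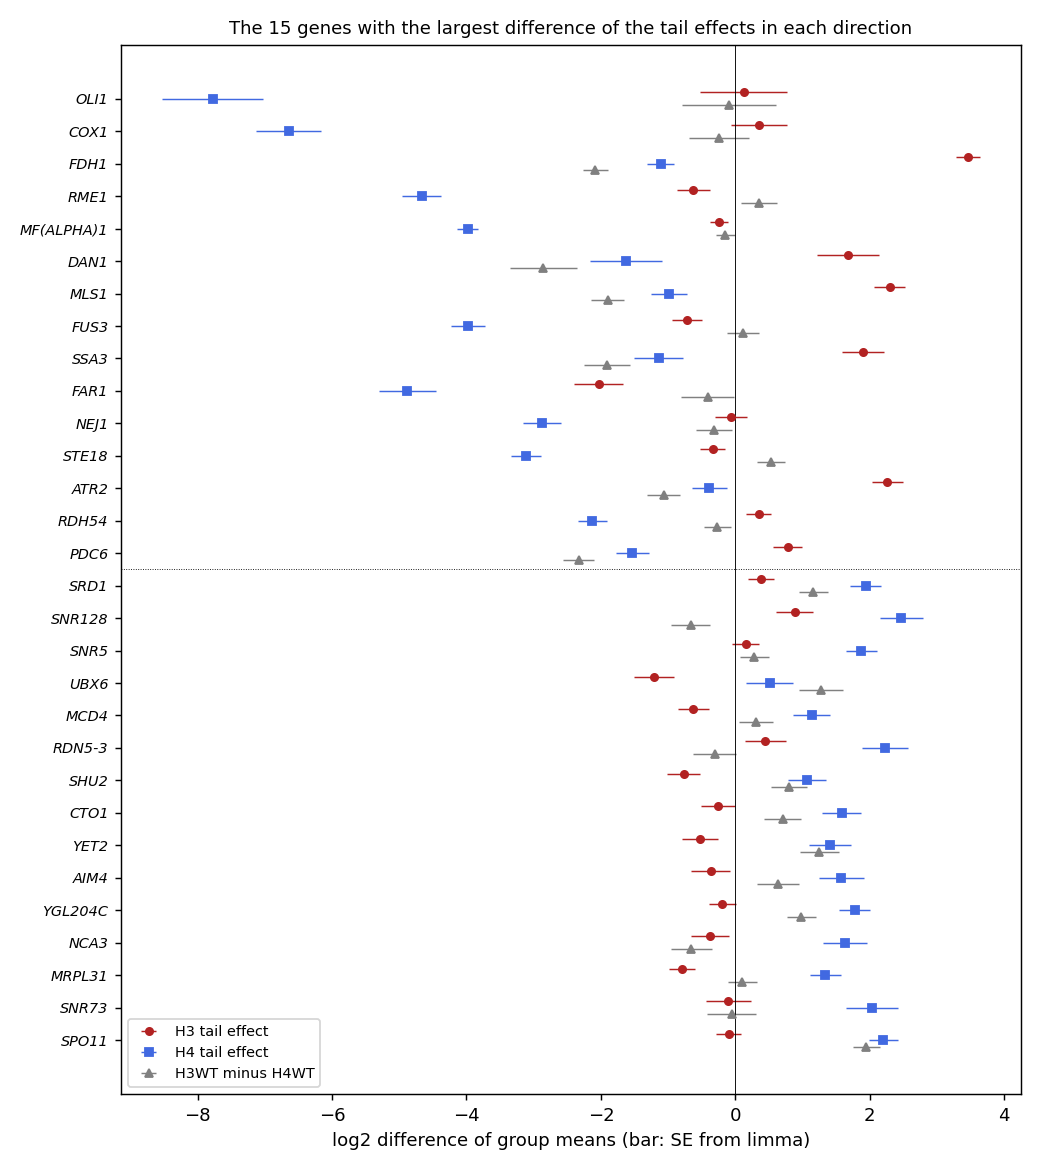
H3 tail effect (red circles), H4 tail effect (blue squares) and H3WT minus H4WT (grey triangles), in log2 with limma's SE, for the 15 genes with the largest difference of the tail effects in each direction. For RME1, MF(ALPHA)1, FUS3 and STE18 the H3 tail effect and the wild-type difference are small beside the H4 tail effect. For FDH1, DAN1, MLS1, SSA3 and PDC6 the grey triangle lies well below 0.

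In the class of 11 probe sets called higher in H3del and lower in H4del, the 5 genes with the largest difference were FDH1, DAN1, MLS1, SSA3 and PDC6. FDH1, a formate dehydrogenase, had signals of 3833, 3602, 4037 and 4649.5 on the H3del arrays, 457, 272, 305 and 391 on the H3WT arrays, 683, 666 and 758 on the H4del arrays, and 1694, 1479.9 and 1439 on the H4WT arrays. H3del was above every other array, H4del was below H4WT, and the H3WT arrays were the lowest of all. The tail effects were 3.46 ± 0.17 for H3 and -1.11 ± 0.20 for H4, a difference of 4.57 ± 0.27 (SE, adjusted p = 4.81e-08), and H3WT minus H4WT was -2.08 ± 0.19. A second tested probe set of FDH1 gave 3.62 ± 0.43 and a dim further one, in the fit without the filter, -0.67 ± 0.26. MLS1, malate synthase of the glyoxylate cycle, had signals of 1035, 1690.2, 1055 and 1459 on the H3del arrays, 266, 236, 196 and 302 on the H3WT arrays, 648, 347 and 485 on the H4del arrays, and 1223, 791 and 935 on the H4WT arrays. H3WT was again the lowest group and H4del was below H4WT, but H3del overlapped H4WT. Its difference was 3.29 ± 0.35 (SE, adjusted p = 7.82e-05), with 2.30 for H3, -0.99 for H4 and -1.90 ± 0.25 between the wild types.

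SSA3, an Hsp70 chaperone, had means of 395 ± 86.9 in H3del, 98.3 ± 45.3 in H3WT, 181 ± 79.7 in H4del and 392 ± 49.5 in H4WT (SD). Its H3del and H4WT arrays overlapped, as did its H3WT and H4del arrays, and the difference of the effects was 3.05 ± 0.48 (SE, adjusted p = 0.00222) with -1.91 ± 0.34 between the wild types. PDC6, a minor pyruvate decarboxylase, had means of 882 ± 213 in H3del, 498 ± 64.2 in H3WT, 893 ± 228 in H4del and 2584 ± 446 in H4WT (SD). The mutants overlapped, and H4WT was above every other group. The difference was 2.31 ± 0.33 (SE, adjusted p = 0.00109) with -2.33 ± 0.23 between the wild types.

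DAN1, a cell wall mannoprotein of anaerobic cells, had signals of 319, 323, 302 and 232 on the H3del arrays, 84.3, 86.3, 63.7 and 88.1 on the H3WT arrays, 233, 197 and 203 on the H4del arrays, and 764, 2128 and 189.6 on the H4WT arrays. The H3WT arrays were below all others, the deletion arrays of both histones overlapped, and H4WT replicate 3 was far below the other H4WT arrays and below every H4del array. The difference of 3.30 ± 0.71 (SE, adjusted p = 0.0192) stood beside -2.86 ± 0.50 between the wild types. DAN1 lost the call without H4del replicate 2 (adjusted p of 0.0502). The 11 tested PAU, DAN and TIR genes as a list had 2 called higher (5 with the replicate block), against 2.64% of all tested genes (11.7% with the block), and a median of 0.66, and 9 of them were lower in H3WT than in H4WT, against 1.72% of all tested genes, with a median of -1.31. The other called member, the cell wall gene TIR4, gave 1.96 ± 0.32 (adjusted p = 0.00314) with -1.71 ± 0.23 between the wild types. Its relative TIR1 gave 1.04 ± 0.33 (adjusted p = 0.0887, 0.0112 with the replicate block, 0.0417 to 0.0493 without H3del replicate 3 or H4WT replicate 3). TIR3 gave 0.74 ± 0.24 (adjusted p = 0.102, 0.0422 with the replicate block).

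BIO4, the dethiobiotin synthetase of biotin synthesis, had means of 2454 ± 88.1 in H3del, 1107 ± 258 in H3WT, 1054 ± 263 in H4del and 2275 ± 349 in H4WT (SD). H3del was above H3WT and H4del below H4WT without overlap, and the difference was 2.29 ± 0.31 (SE, adjusted p = 0.000632). Its neighbours in the pathway, BIO3 (1.22 ± 0.28, adjusted p = 0.0255) and the transporter gene BIO5 (1.11 ± 0.26, adjusted p = 0.0288), were higher in H3del and not called in H4del. BIO3 lost the call without H3del replicate 1, 2 or 4, H3WT replicate 1, H4del replicate 3, or H4WT replicate 1 or 2 (adjusted p 0.0524 to 0.067). BIO5 lost it without H3del replicate 1 or 2, H4del replicate 2 or 3, or H4WT replicate 1 or 2 (adjusted p 0.0556 to 0.0794). The wild types differed by -1.05 ± 0.22 for BIO4 and -1.07 ± 0.19 for BIO5.

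**Figure D4:**
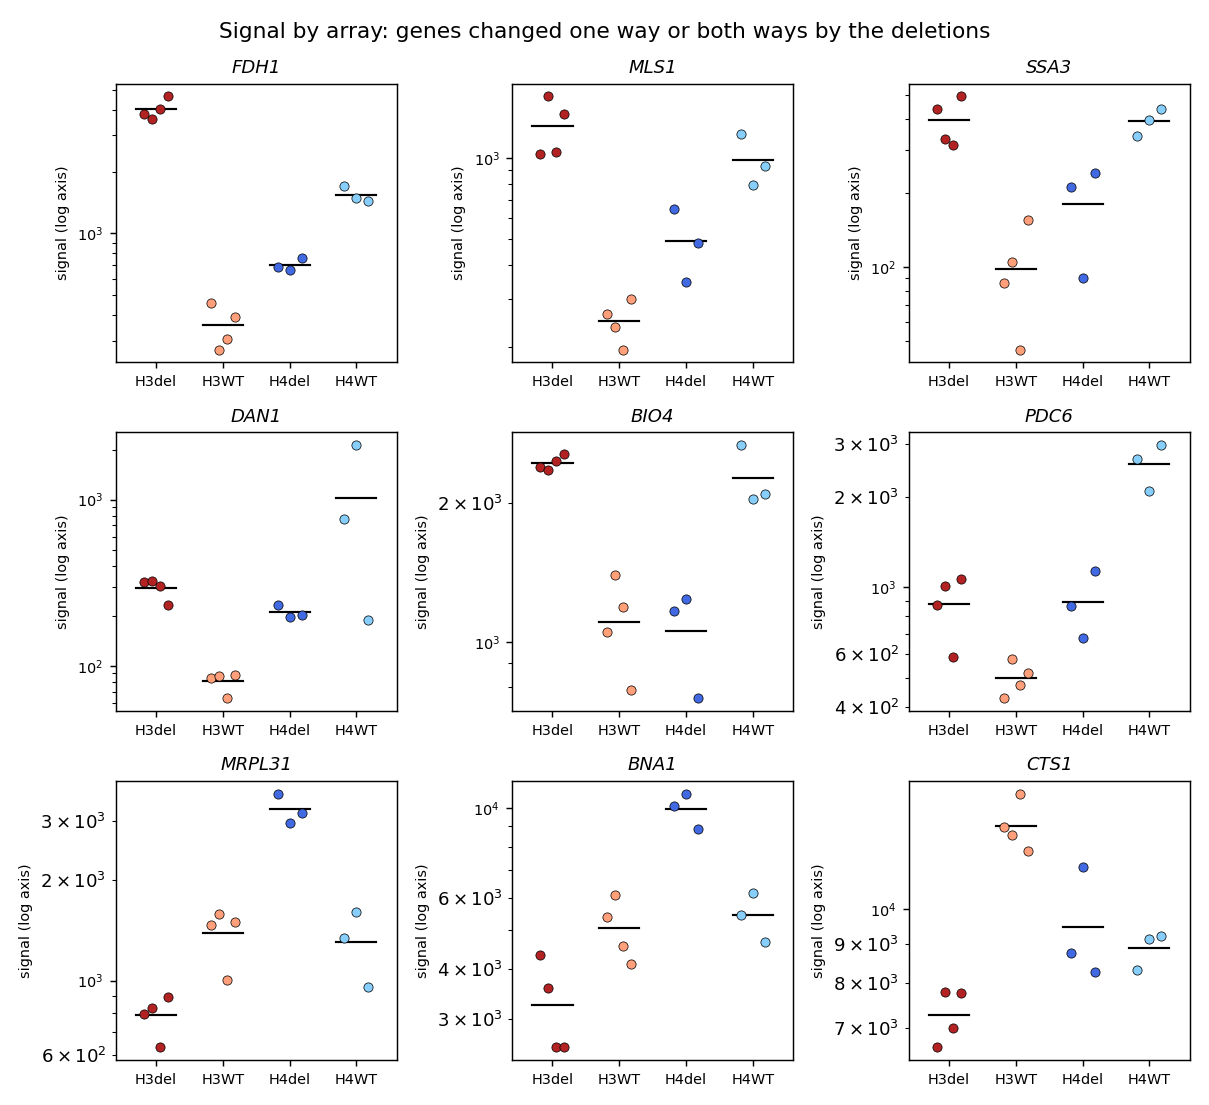
Signal (log axis) on each array for 9 genes, with H3del, H3WT, H4del and H4WT from left to right, 1 point per array and a bar at the group mean. In FDH1, MLS1, SSA3, DAN1, BIO4 and PDC6 H3del lies above H3WT and the H4WT mean lies above H4del, MRPL31 and BNA1 show the opposite order, and CTS1 is lowest in H3del with the H4 groups overlapping.

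Glucose-repressed genes serve the use of other carbon sources. Of 18 tested members 3 were called higher and 0 lower (5 higher with the replicate block), against 2.64% higher over all tested genes (11.7% with the block). Of the 18, 10 were called higher in H3del than in H3WT, against 4.39% of all tested genes, and 6 were called higher and 1 lower in H4del than in H4WT, against 4.53% and 11.0%, with median effects of 0.89 for H3 and 0.07 for H4 and a median of -0.38 between the wild types. Besides MLS1 these were ADH2, the alcohol dehydrogenase of ethanol use, and CAT2, carnitine acetyltransferase. ADH2 had means of 6245 ± 1070.3 in H3del, 2043 ± 294 in H3WT, 4092 ± 607 in H4del and 5228 ± 1169.7 in H4WT (SD), and a difference of 1.94 ± 0.28 (SE, adjusted p = 0.00121). CAT2 gave 1.79 ± 0.33 (adjusted p = 0.00874). Both stood lower in H3WT than in H4WT, by -1.34 ± 0.20 and -1.36 ± 0.23. IDP2, a cytosolic isocitrate dehydrogenase, gave 1.03 ± 0.35 (adjusted p = 0.114, 0.0167 with the replicate block, 0.0353 without H3WT replicate 4). Of 11 genes of peroxisomal fatty acid oxidation 1 was called higher (3 with the replicate block, where the share of all tested genes was 11.7%), the thiolase gene POT1 at 1.92 ± 0.34 (adjusted p = 0.00551). The enoyl-CoA isomerase gene ECI1 gave 1.40 ± 0.39 (adjusted p = 0.0595, 0.0121 with the replicate block, 0.0113 to 0.0322 without H3del replicate 3 or H4WT replicate 3). PEX11, of peroxisome division, gave 0.81 ± 0.29 (adjusted p = 0.137, 0.0204 with the replicate block). The transporter gene PXA1 gave 0.69 ± 0.30 (adjusted p = 0.21).

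DAK2, a dihydroxyacetone kinase, was higher in H3del with no called difference between the wild types. Its signals were 876, 848, 1318 and 1564 on the H3del arrays, 152, 130.0, 246 and 173 on the H3WT arrays, 538, 549.7 and 501 on the H4del arrays, and 362, 203 and 597 on the H4WT arrays. H3del was above every other array, and the H4del and H4WT arrays overlapped. The difference was 2.04 ± 0.44 (SE, adjusted p = 0.0192) with -0.99 ± 0.31 between the wild types. The membrane transporter gene ATR2 gave 2.65 ± 0.35 (adjusted p = 0.000606) with an H4 tail effect of -0.39 ± 0.26. RNR3, the damage-induced large subunit of ribonucleotide reductase, gave 1.84 ± 0.33 (adjusted p = 0.00642). It was the 1 called member of 9 DNA damage response genes, against 2.64% of all tested genes called higher (3 with the replicate block, against 11.7%). Of the others HUG1, an inhibitor of the same enzyme, gave 0.78 ± 0.30 (adjusted p = 0.15, 0.0446 with the replicate block). The recombination gene RAD54 gave 0.95 ± 0.33 (adjusted p = 0.115, 0.0365 with the replicate block). The peroxiredoxin gene TSA2 gave 0.64 ± 0.32 (adjusted p = 0.28). YAR068W gave 2.14 ± 0.54 (adjusted p = 0.0368). YAR068W lost the call without H3del replicate 1, 2 or 4, H4del replicate 1 or 2, or H4WT replicate 1 (adjusted p 0.0641 to 0.105). SPG4, a gene of stationary phase, gave 2.00 ± 0.45 (adjusted p = 0.0223) with -2.45 ± 0.32 between the wild types. SPG4 lost the call without H4WT replicate 1 or 2 (adjusted p 0.0511 to 0.052).

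FRM2, a nitroreductase-like gene, was higher in both deletion strains and more so in H3del, with tail effects of 3.05 ± 0.18 for H3 and 1.76 ± 0.21 for H4 and a difference of 1.29 ± 0.28 (adjusted p = 0.0192). It lost the call without H4del replicate 2 (adjusted p of 0.06). The wild types differed by -1.09 ± 0.20. SPO75, a sporulation gene, was higher in both by amounts that were not called apart (3.13 ± 0.18 for H3, 2.43 ± 0.21 for H4, and a difference with a 95% interval of 0.11 to 1.29), and its difference was called with the day as a random block (adjusted p = 0.0487). YNR064C, higher in both, gave 1.80 ± 0.43 (adjusted p = 0.0299). YNR064C lost the call without H3del replicate 1 or 4, H3WT replicate 2, H4del replicate 1 or 2, or H4WT replicate 1 (adjusted p 0.057 to 0.0897). The cell wall mannoprotein gene HPF1, also higher in both, gave 0.96 ± 0.25 (adjusted p = 0.0452). HPF1 lost the call without H3del replicate 1, 2 or 4, H3WT replicate 1, 2 or 4, H4del replicate 1, 2 or 3, or H4WT replicate 1, 2 or 3 (adjusted p 0.0507 to 0.107).

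Genes of vitamin synthesis differed within their families. SNZ1 and SNO1 are neighbouring genes of vitamin B6 metabolism. SNZ1 had means of 8667 ± 1239 in H3del, 1348 ± 199 in H3WT, 7384 ± 1839 in H4del and 4876 ± 609 in H4WT (SD), and a difference of 2.10 ± 0.27 (SE, adjusted p = 0.000606). SNO1 had means of 1159.6 ± 303 in H3del, 173 ± 19.9 in H3WT, 3352 ± 587 in H4del and 604 ± 52.0 in H4WT (SD), and rose with both deletions (2.60 ± 0.19 and 2.43 ± 0.22), with a difference of 0.18 ± 0.29 that was not called. Both genes were lower in H3WT than in H4WT (-1.85 ± 0.19 and -1.71 ± 0.21). The probe set shared by SNZ2 and SNZ3 gave 2.03 ± 0.29 (adjusted p = 0.00121) and that shared by SNO2 and SNO3 gave 2.56 ± 0.38 (adjusted p = 0.00141). Both were higher in H3del and lower in H4del, with -0.36 ± 0.21 and 0.11 ± 0.27 between the wild types.

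Of 11 tested thiamine genes 3 were called higher and 0 lower (7 higher with the replicate block), against 2.64% higher over all tested genes (11.7% with the block), with a median of 1.03. THI4, of thiazole synthesis, gave 1.61 ± 0.37 (adjusted p = 0.0246), PHO3, a phosphatase that acts on thiamine phosphates, gave 1.03 ± 0.24 (adjusted p = 0.0255), and THI22 gave 1.17 ± 0.26 (adjusted p = 0.0202). THI4 lost the call without H3del replicate 2 or 4, H4del replicate 2, or H4WT replicate 1 (adjusted p 0.0524 to 0.0793). PHO3 lost it without H3del replicate 1 or 2, H4del replicate 1 or 3, or H4WT replicate 1 or 2 (adjusted p 0.0517 to 0.0702). THI22 lost it without H4del replicate 2, or H4WT replicate 1 or 2 (adjusted p 0.0517 to 0.0606). PET18 gave 1.19 ± 0.35 (adjusted p = 0.0704, 0.0119 with the replicate block, 0.0251 without H3WT replicate 1).

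Of 13 purine and glycine cleavage genes 1 was called, against 2.64% of all tested genes called higher. This was ADE12 at 0.74 ± 0.18 (adjusted p = 0.033). Its call was lost without H3del replicate 2 or 4, H3WT replicate 1 or 2, H4del replicate 1 or 2, or H4WT replicate 1 or 2 (adjusted p 0.06 to 0.0927). With the replicate block 11 of the 13 were called higher, where the share over all tested genes was 11.7%. The median of this list was 0.77, with median effects of 0.13 for H3 and -0.78 for H4, and -0.57 between the wild types. Of the 13, 8 were called lower in H4del than in H4WT, against 11.0% of all tested genes. In H3del 1 was called lower than in H3WT, against 2.6%. Among the uncalled members ADE2 gave 1.07 ± 0.34 (adjusted p = 0.0929, 0.0067 with the replicate block, 0.0471 without H4WT replicate 3). ADE13 gave 0.98 ± 0.30 (adjusted p = 0.0821, 0.0176 with the replicate block, 0.0371 to 0.0393 without H4WT replicate 3 or H4del replicate 1). ADE17 gave 0.98 ± 0.31 (adjusted p = 0.0884, 0.0129 with the replicate block, 0.0403 without H4WT replicate 3).

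In NAD synthesis the members went different ways. BNA4, kynurenine 3-monooxygenase, was higher in H3del (1.67 ± 0.18) and gave a difference of 1.40 ± 0.27 (SE, adjusted p = 0.0119). BNA1, 3-hydroxyanthranilate dioxygenase, had signals of 4318, 3584, 2571 and 2562 on the H3del arrays, 5381, 6104, 4546 and 4121 on the H3WT arrays, 10127, 10814 and 8837 on the H4del arrays, and 5429.8, 6162 and 4666 on the H4WT arrays. Its H4del arrays were above every other array and H3del overlapped H3WT. The difference was -1.52 ± 0.29 (SE, adjusted p = 0.00979). TNA1, the nicotinic acid permease, was higher in both deletion strains and more so in H4del, with a difference of -1.04 ± 0.27 (adjusted p = 0.0454). TNA1 lost the call without H3del replicate 1, 2 or 4, H3WT replicate 2, 3 or 4, H4del replicate 1, 2 or 3, or H4WT replicate 1 or 2 (adjusted p 0.0544 to 0.105). The kynureninase gene BNA5 gave 0.84 ± 0.32 (adjusted p = 0.154, 0.038 with the replicate block).

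Among tested genes with the lower H3 tail effect the largest value was that of SPO11, the enzyme that makes the DNA breaks of meiosis. It averaged a signal of 246 ± 8.32 in H3del (SD, n = 4) and had signals of 263, 270.1, 251 and 277 on the H3WT arrays, 285, 394 and 287 on the H4del arrays, and 73.2, 59.2 and 39.7 on the H4WT arrays. The H4WT arrays were below every other array, and H3del overlapped H3WT. The difference was -2.30 ± 0.28 (SE, adjusted p = 0.000373), with an H4 tail effect of 2.20 ± 0.21 and H3WT minus H4WT at 1.95 ± 0.20. A similar order was seen for YGL204C at -1.97 ± 0.31 (adjusted p = 0.00213) with 0.98 ± 0.22 between the wild types, and for SRD1 at -1.55 ± 0.30 (adjusted p = 0.0127) with 1.16 ± 0.21. SHU2, a recombination factor, gave -1.84 ± 0.38 (adjusted p = 0.016), and MCD4, of GPI anchor synthesis, gave -1.76 ± 0.36 (adjusted p = 0.0153) with -0.62 ± 0.23 for H3 and 1.14 ± 0.27 for H4. CTO1 (-1.84 ± 0.39, adjusted p = 0.0172), AIM4 (-1.94 ± 0.44, adjusted p = 0.0249) and YET2 (-1.93 ± 0.41, adjusted p = 0.0172) were likewise higher in H4del and not called in H3del. AIM4 lost the call without H4del replicate 1 or 2, or H4WT replicate 1 or 2 (adjusted p 0.0532 to 0.0646). YET2 lost it without H4WT replicate 1 (adjusted p of 0.0501). NCA3 gave -2.01 ± 0.43 (adjusted p = 0.0192) with -0.66 ± 0.31 between the wild types. NCA3 lost the call without H4del replicate 1 or 2 (adjusted p 0.053 to 0.0606).

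The class lower in H3del and not called in H4del had UBX6, a gene of the UBX-domain family, as its largest value, at -1.72 ± 0.46 (adjusted p = 0.0488) with 1.27 ± 0.32 between the wild types. Its call was lost without H3del replicate 1, 2, 3 or 4, H3WT replicate 1, 2, 3 or 4, H4del replicate 1, 2 or 3, or H4WT replicate 1 or 2 (adjusted p 0.055 to 0.119). HSK3, of the complex that couples kinetochores to microtubules, gave -1.43 ± 0.35 (adjusted p = 0.032). HSK3 lost the call without H3del replicate 1 or 2, H4del replicate 1 or 2, or H4WT replicate 1 or 2 (adjusted p 0.0532 to 0.0794). The deubiquitinating enzyme gene OTU1 gave -1.23 ± 0.28 (adjusted p = 0.0243). OTU1 lost the call without H3del replicate 1 or 2, H4del replicate 1 or 2, or H4WT replicate 2 (adjusted p 0.0505 to 0.0707). MSP1, of the mitochondrial outer membrane, gave -1.10 ± 0.24 (adjusted p = 0.0192). MSP1 lost the call without H4del replicate 1, or H4WT replicate 2 (adjusted p of 0.0559). Of the 5 genes called with neither tail effect called BAR1 is given above, and 4 follow. ARO10, a phenylpyruvate decarboxylase, gave 2.01 ± 0.53 (adjusted p = 0.0461). ARO10 lost the call without H3del replicate 1, 2 or 4, H3WT replicate 1 or 2, H4del replicate 1, 2 or 3, or H4WT replicate 1 or 2 (adjusted p 0.0538 to 0.116). PTP1, a protein tyrosine phosphatase, gave 1.16 ± 0.31 (adjusted p = 0.0472). PTP1 lost the call without H3del replicate 1, 2 or 4, H3WT replicate 1, 3 or 4, H4del replicate 1 or 2, or H4WT replicate 1 or 2 (adjusted p 0.0686 to 0.124). AUS1, a transporter of sterol uptake, gave 1.15 ± 0.30 (adjusted p = 0.0424). AUS1 lost the call without H3del replicate 1, 2 or 4, H3WT replicate 1, 2 or 3, H4del replicate 1, 2 or 3, or H4WT replicate 1 or 2 (adjusted p 0.062 to 0.11). YGR109W-B, an open reading frame of a Ty3 transposon, gave -1.21 ± 0.31 (adjusted p = 0.0433). YGR109W-B lost the call without H3del replicate 2, 3 or 4, H3WT replicate 1 or 2, H4del replicate 1 or 2, or H4WT replicate 1 or 2 (adjusted p 0.0652 to 0.11).

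Probe sets for small nucleolar, small nuclear and ribosomal RNAs were called in 6 of 30 tested cases, all lower, against 1.28% of all tested probe sets called lower, and their median was -1.0. Their median effects were 0.41 for H3 and 1.43 for H4. SNR5, a guide RNA for pseudouridylation, had signals of 382, 296.7, 256 and 278 on the H3del arrays, 264, 276, 323 and 219 on the H3WT arrays, 1044, 847 and 673 on the H4del arrays, and 252, 178 and 228 on the H4WT arrays. H4del was above all other arrays, whose groups overlapped, and the difference was -1.72 ± 0.30 (SE, adjusted p = 0.00551). SNR73 gave -2.14 ± 0.51, SNR128, the U14 RNA of ribosomal RNA processing, gave -1.59 ± 0.42, and RDN5-3, a 5S ribosomal RNA copy, gave -1.78 ± 0.46, with adjusted p of 0.0283, 0.0454 and 0.0432. SNR73 lost its call without H3del replicate 4, H3WT replicate 1 or 2, H4del replicate 1 or 2, or H4WT replicate 1 (adjusted p 0.0539 to 0.0866). SNR128 lost it without H3del replicate 1, 3 or 4, H3WT replicate 1, 2 or 3, H4del replicate 1, 2 or 3, or H4WT replicate 1, 2 or 3 (adjusted p 0.052 to 0.0912). RDN5-3 lost it without H3del replicate 1, 2, 3 or 4, H3WT replicate 1, 2 or 4, H4del replicate 2, or H4WT replicate 2 or 3 (adjusted p 0.0503 to 0.103). The control probe sets for ribosomal RNA averaged 11.1 in H4del and 8.90 in H4WT (log2), and the ratio of 3' to 5' actin signal was 2.44 ± 0.61 in H3del, 1.90 ± 0.25 in H3WT, 1.75 ± 0.23 in H4del and 1.65 ± 0.17 in H4WT (SD). Their part in these results was not tested. Probe sets with no annotated gene were called in 34 of 804 cases (4.23%, against 3.68% of all tested probe sets), 7 higher (0.871%, against 2.4%) and 27 lower (3.36%, against 1.28%).

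Genes of the end of mitosis and cell separation are transcribed as mother and daughter part. Of 14 tested members 3 were called lower and 0 higher (5 lower with the replicate block), against 0.898% lower over all tested genes (4.69% with the block). Of the 14, 7 were called lower in H3del than in H3WT, against 2.6% of all tested genes. In H4del against H4WT 2 were called lower and 1 higher, against 11.0% and 4.53%. The median difference over the list was -0.62, with median effects of -0.77 for H3 and -0.05 for H4. CTS1, the chitinase that parts mother and daughter, had signals of 6600.4, 7785, 6986 and 7760.5 on the H3del arrays, 12837, 12515, 14160.3 and 11914 on the H3WT arrays, 8760.4, 11376 and 8277 on the H4del arrays, and 8325, 9152 and 9222 on the H4WT arrays. H3del was below H3WT without overlap, and the H4del and H4WT arrays overlapped. The difference was -0.90 ± 0.19 (SE, adjusted p = 0.0185), and the call was lost without H4del replicate 2 (adjusted p of 0.0531). SCW11, a cell wall glucanase, gave -1.09 ± 0.26 (adjusted p = 0.0267), and PCL9, a cyclin of this phase, gave -1.14 ± 0.27 (adjusted p = 0.0269). SCW11 lost the call without H3del replicate 1, 2 or 4, H4del replicate 1 or 2, or H4WT replicate 2 (adjusted p 0.0511 to 0.0786). PCL9 lost it without H3del replicate 1 or 2, H3WT replicate 1, H4del replicate 1 or 2, or H4WT replicate 1 or 2 (adjusted p 0.0534 to 0.087). H3WT exceeded H4WT by 0.71 ± 0.19 for PCL9 and 0.53 ± 0.14 for CTS1. PCL1, a cyclin of the G1 phase, was the 1 called of 9 cyclin genes, against 2.64% of all tested genes called higher (3 with the replicate block, against 11.7%). Its difference was 1.71 ± 0.41 (adjusted p = 0.0299). PCL1 lost the call without H3del replicate 1, 2 or 4, H3WT replicate 1 or 2, or H4WT replicate 1 or 2 (adjusted p 0.0504 to 0.0847). The B-type cyclin gene CLB1 gave 1.56 ± 0.43 (adjusted p = 0.0572, 0.00396 with the replicate block, 0.0128 to 0.0344 without H3WT replicate 4 or H4WT replicate 3). CLB4, another, gave 0.83 ± 0.32 (adjusted p = 0.151, 0.0432 with the replicate block, 0.0489 without H4WT replicate 3). The G1 cyclin gene CLN2 gave 0.75 ± 0.42 (adjusted p = 0.332). The cell wall gene PIR1, of the separation list, gave -0.96 ± 0.27 (adjusted p = 0.0619, 0.0265 with the replicate block, 0.0402 to 0.0465 without H3WT replicate 2 or H4WT replicate 2).

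The histone genes and plasmid markers were examined as well. The probe set shared by HHF1 and HHF2, the H4 genes, gave 1.35 ± 0.31 (SE, adjusted p = 0.0249), with 0.47 ± 0.20 for H3 and -0.88 ± 0.23 for H4. The shared probe set lost the call without H3del replicate 4, H4del replicate 1 or 2, or H4WT replicate 2 (adjusted p 0.0502 to 0.0654). The H3 genes HHT1 and HHT2 share 2 tested probe sets, which gave -0.16 ± 0.20 and -0.27 ± 0.39. The files do not place these probes with respect to the deleted parts of the genes, and the values therefore check no label. Of 5 other histone genes measured by their own probe sets (HTB1, HTB2, HTZ1, HHO1 and CSE4) 0 were called in limma, with values from -0.10 for HTB2 to 0.70 for HHO1. Of these 1 had an unadjusted p under 0.05, against 20.4% of all tested genes. LEU2 had means of 25088 ± 1738 in H3del, 20735 ± 1305 in H3WT, 3138 ± 2454 in H4del and 4475 ± 2377 in H4WT (SD), as the marker of the H3 plasmid, and TRP1 had 1598 ± 537, 1947 ± 121, 15105 ± 1382 and 13494 ± 4291 in the same groups. Their differences of the tail effects, 0.93 ± 0.51 and -0.56 ± 0.37, and that of URA3, 0.29 ± 0.29, were not called, although LEU2 had an adjusted p of 0.00961 with the replicate block and of 0.0305 without H4del replicate 3.

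**Figure D5:**
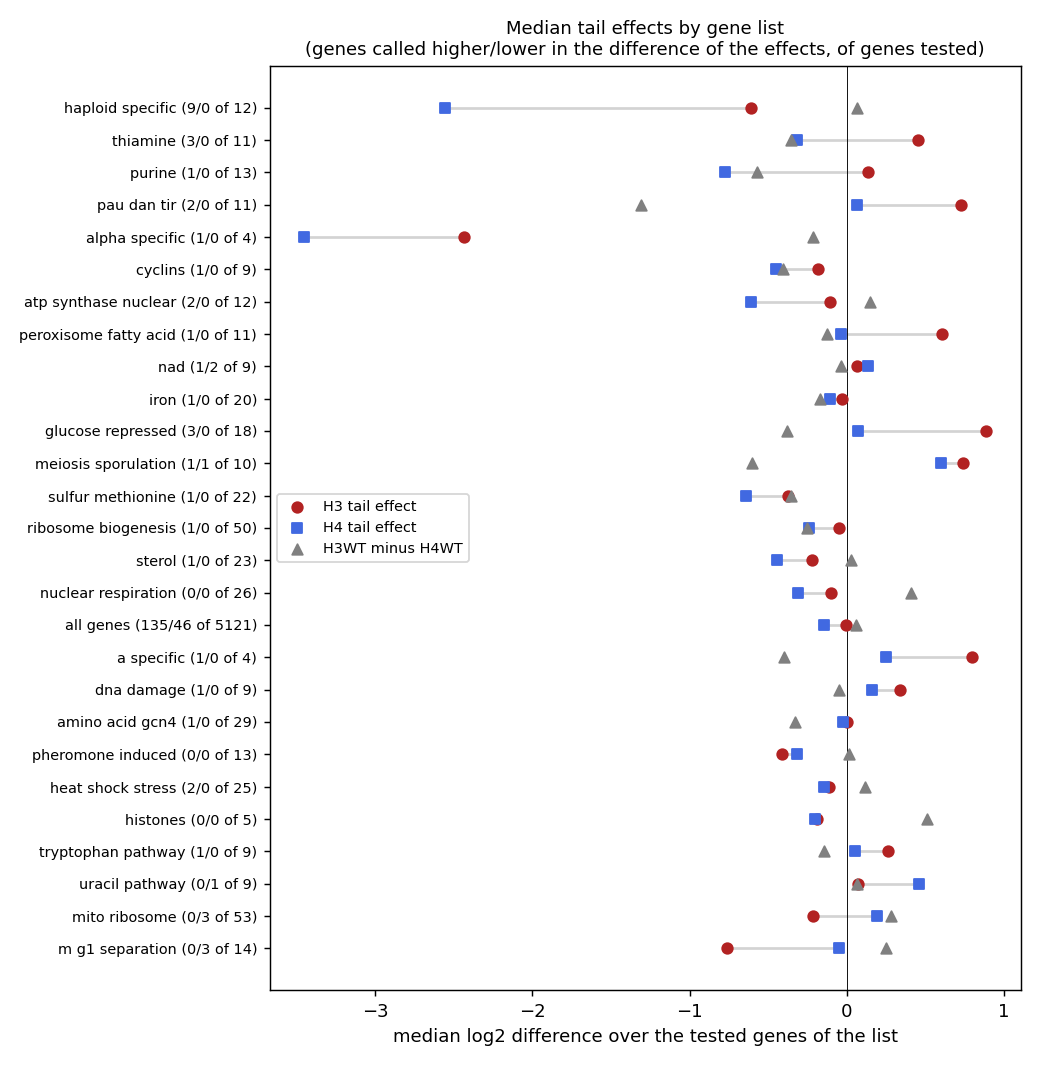
Median H3 tail effect (red circles), H4 tail effect (blue squares) and H3WT minus H4WT (grey triangles) over the tested genes, in log2, for the lists with at least 4 tested genes and a called member and for the histone, respiratory chain and pheromone-induced genes, with the number called higher and lower of the number tested beside the name. Haploid-specific genes have the widest gap, with medians of -0.61 for H3 and -2.55 for H4, and all 5121 genes lie near 0.

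Of the remaining lists with at least 4 tested genes, those of iron, sulfur, sterol, heat shock, amino acid, tryptophan, uracil and ribosome biogenesis genes had 1 or 2 called members each, and those of retrograde response, COS family, phosphate, inositol, zinc, nitrogen, hexose transport, galactose, glycolysis, leucine, proteasome and silencing genes had 0 in limma. Of 160 genes on these 12 lists 34 (21.2%, against 20.4% of all tested genes) had an unadjusted p under 0.05 and 28 (17.5%, against 16.4%) were called with the replicate block. Of 10 genes of meiosis and sporulation 1 was called higher, the sporulation gene SPS2 at 1.89 ± 0.40 (adjusted p = 0.0176, lost without H4del replicate 2 (adjusted p of 0.0529)), and 1 lower, SPO11 above. With the replicate block 3 of the 10 were called higher and 1 lower. Over all tested genes 2.64% were called higher and 0.898% lower (11.7% and 4.69% with the block). The sporulation kinase gene SPS1 gave 1.21 ± 0.33 (adjusted p = 0.0517, 0.00959 with the replicate block, 0.028 to 0.05 without H3del replicate 3 or H3WT replicate 2). HSP26, a small heat shock protein, was 1 of 2 called of 25 heat shock and stress genes (4 higher with the replicate block), at 1.57 ± 0.38 (adjusted p = 0.0302). HSP26 lost the call without H3del replicate 1, H3WT replicate 4, H4del replicate 1 or 2, or H4WT replicate 1 (adjusted p 0.053 to 0.0794). SSA3 was the other, and of the uncalled members the Hsp70 gene SSA4 gave 0.86 ± 0.38 (adjusted p = 0.22, 0.0242 with the replicate block). The chaperonin gene HSP10 gave -0.60 ± 0.31 (adjusted p = 0.289). The probe set shared by DDI2 and DDI3, cyanamide hydratases, gave 2.18 ± 0.33 (adjusted p = 0.00184) with -1.84 ± 0.24 between the wild types.

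The counts of this paragraph stand against 2.64% of all tested genes called higher and 0.898% lower. Of 20 iron genes FIT1, a cell wall protein that holds iron carriers, was the 1 called, at 1.08 ± 0.28 (adjusted p = 0.0419). FIT1 lost the call without H3del replicate 1, 2 or 4, H3WT replicate 1, 2 or 3, H4del replicate 1 or 2, or H4WT replicate 2 or 3 (adjusted p 0.054 to 0.107). FIT2 gave 1.5 ± 0.70 (adjusted p = 0.242, 0.0168 without H4del replicate 3). The siderophore transporter gene ENB1 gave 0.94 ± 0.43 (adjusted p = 0.232, 0.0465 without H4WT replicate 3). The mitochondrial iron carrier gene MRS4 gave -1.16 ± 0.31 (adjusted p = 0.05, 0.00895 with the replicate block, 0.0372 to 0.0441 without H3del replicate 3, H3WT replicate 2 or H4WT replicate 3). Of 22 genes of sulfur metabolism the sulfate permease gene SUL1 was called, at 1.88 ± 0.44 (adjusted p = 0.0263) with -1.97 ± 0.31 between the wild types. SUL1 lost the call without H3del replicate 1, 2 or 4, H3WT replicate 1 or 2, H4del replicate 2 or 3, or H4WT replicate 1 or 2 (adjusted p 0.0509 to 0.0848). MET10 gave 0.88 ± 0.29 (adjusted p = 0.105, 0.0315 with the replicate block). MET17 gave 0.39 ± 0.19 (adjusted p = 0.252). MMP1 gave 0.74 ± 0.32 (adjusted p = 0.204). Of 23 sterol genes MVD1, of the mevalonate pathway, was called at 0.83 ± 0.20 (adjusted p = 0.0299). MVD1 lost the call without H3del replicate 1, 2 or 4, H3WT replicate 2, H4del replicate 1, 2 or 3, or H4WT replicate 1 (adjusted p 0.053 to 0.0706). ERG9, squalene synthase, gave 0.73 ± 0.22 (adjusted p = 0.0821, 0.0335 with the replicate block). ERG28 gave -0.75 ± 0.25 (adjusted p = 0.0972, 0.0331 with the replicate block). ERG11 gave -0.45 ± 0.18 (adjusted p = 0.168).

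Of 29 genes of amino acid synthesis LYS9, of the lysine pathway, was called at 1.47 ± 0.26 (adjusted p = 0.00609), lower in H4del alone, and kept the call without each array in turn. ARO1 gave -0.63 ± 0.21 (adjusted p = 0.0989, 0.0335 with the replicate block). ARG1 gave 0.63 ± 0.24 (adjusted p = 0.154, 0.0452 with the replicate block). HIS3 gave 0.47 ± 0.22 (adjusted p = 0.249). Of 9 tryptophan pathway genes ARO10, given above, was the 1 called. The aminotransferase gene ARO9 gave 1.41 ± 0.47 (adjusted p = 0.106, 0.00724 with the replicate block, 0.0335 without H3del replicate 3). The tryptophan permease gene TAT2 gave -0.67 ± 0.25 (adjusted p = 0.141). TRP5, tryptophan synthase, gave 0.28 ± 0.16 (adjusted p = 0.343). Of 9 uracil pathway genes URA1, dihydroorotate dehydrogenase, was called at -0.67 ± 0.16 (adjusted p = 0.0269), higher in H4del alone. URA1 lost the call without H3del replicate 1 or 2, H3WT replicate 1, H4del replicate 1 or 2, or H4WT replicate 1 or 2 (adjusted p 0.0534 to 0.087). The uracil permease gene FUR4 gave -1.03 ± 0.30 (adjusted p = 0.07, 0.0448 with the replicate block, 0.0469 without H4WT replicate 1). The uridine permease gene FUI1 gave -1.19 ± 0.50 (adjusted p = 0.196, 0.0372 with the replicate block). URA2 gave -0.27 ± 0.19 (adjusted p = 0.448). Of 50 genes of ribosome biogenesis RRP5 was called at 1.07 ± 0.25 (adjusted p = 0.0255). RRP5 lost the call without H3del replicate 4, H4del replicate 1 or 3, or H4WT replicate 1 or 2 (adjusted p 0.0526 to 0.0765). UTP6 gave 0.90 ± 0.42 (adjusted p = 0.245, 0.0149 without H4WT replicate 3). NOP56 gave -0.71 ± 0.34 (adjusted p = 0.259). NOP1 gave -0.38 ± 0.19 (adjusted p = 0.281). The background for these counts is 2.64% of all tested genes called higher and 0.898% lower.

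In the lists with 0 calls the member with the smallest adjusted p is given. DAL1, allantoinase, stood for nitrogen use at 1.05 ± 0.28 (adjusted p = 0.0536, 0.00991 with the replicate block, 0.0196 to 0.028 without H3del replicate 3 or H4WT replicate 3). COS9 stood for the COS family at -1.19 ± 0.33 (adjusted p = 0.0578, 0.0209 with the replicate block, 0.0408 without H4WT replicate 2). GAL7 stood for galactose use at 1.27 ± 0.35 (adjusted p = 0.0581, 0.0227 with the replicate block, 0.045 to 0.0474 without H3WT replicate 3 or H4WT replicate 1). ORC1, of the origin recognition complex, stood for silencing at 1.37 ± 0.38 (adjusted p = 0.0595, 0.0102 with the replicate block, 0.0125 to 0.0258 without H3del replicate 3 or H4WT replicate 3). DLD3 stood for the retrograde response at -1.23 ± 0.36 (adjusted p = 0.0694, 0.0239 with the replicate block, 0.0245 to 0.0428 without H3WT replicate 1 or H4WT replicate 3). INO1, inositol phosphate synthase, stood for inositol at -0.79 ± 0.24 (adjusted p = 0.08, 0.0192 with the replicate block, 0.0379 to 0.0411 without H3del replicate 3 or H4del replicate 3). HXT2, a hexose transporter, gave 1.46 ± 0.45 (adjusted p = 0.0821, 0.0207 with the replicate block, 0.0252 without H3WT replicate 3). The acid phosphatase gene PHO5 gave 0.95 ± 0.30 (adjusted p = 0.0886). The zinc-regulated gene ZPS1 gave 1.73 ± 0.65 (adjusted p = 0.146). The proteasome subunit gene SCL1 gave 0.40 ± 0.18 (adjusted p = 0.232). The hexokinase gene HXK2 gave -0.43 ± 0.22 (adjusted p = 0.296). For leucine it was the plasmid marker LEU2.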

How the data were processed

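Total RNA was hybridized to 14 Affymetrix YG_S98 arrays, per the labels. The authors deposited linear intensity, scaled with MAS5 (version not given in the sources used here) per the submitters' processing notes. These values were used as deposited, and no genome build or sequence was used. Of 9275 probe sets 6504 matched 1 gene, 328 several and 2443 none in the platform annotation, with symbols updated through RefSeq gene tables. Before log2 an offset of 16.9 was added (the 10th percentile over every deposited intensity), which understates changes of dim transcripts, and the dimmest probe sets, up to the 30th percentile of the mean log2, were set aside. The deposited intensity files give no detection calls, so a dim probe set is not shown to be above background, and levels of different probe sets are not compared.

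Models with 1 mean per group used limma 3.58.1 in R 4.3.3 (lmFit, then eBayes with trend), and Benjamini-Hochberg adjustment ran over 6492 probe sets, with a threshold of 0.05. Errors are limma's SE, or the SD over arrays beside a mean. The number of arrays limits the precision. Gene values use the brightest probe set annotated to that gene alone.

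Deviations from the group means correlated at 0.263 to 0.638 for the same-number pairs of H3del with H3WT and 0.278 to 0.520 for those of H4del with H4WT, so the replicate numbers were taken to pair the arrays in the replicate block. Same-day pairs with different numbers were alike too. For H3 they correlated at 0.541 (H3del replicate 1 with H3WT replicate 2) and 0.352 (H3del replicate 2 with H3WT replicate 1). For H4 the value was 0.319 (H4del replicate 2 with H4WT replicate 1). Number and day overlap, so the correlations do not show that the number rather than the day pairs the arrays. With the day as a random block the correlation of arrays within a day was 0.52. The labels state no model, so the fit without a block was kept as the main one, with the blocks as alternatives. Calls, classes and genes not called therefore refer to a fit that ignores the pairing, unless a block is named. Alternatives were the offset, the filter, quantile and median normalization, eBayes without a trend, replicate and day blocks, and leaving out arrays, of which the block across strains (the only replicate block for H3WT against H4WT and H3del against H4del) and the fit without day 4 were added after seeing the data. The fit without a block was tested on simulated arrays with independent noise and no day or replicate effect. That test does not show how the fit behaves where arrays of a day are alike.

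The members and gene lists were chosen with earlier results of these data known. The text names the 15 genes with the largest difference each way, the 5 largest of each class, up to 4 members of lists with a called member and 1 of the others, all alpha-specific, haploid-specific, mating-type and histone genes, and the plasmid markers. COX2, COX3, COB, ATP6, VAR1, BIO3, BIO4, BIO5 and the named shared probe sets of SNO, SNZ and DDI genes were chosen after their values were seen. Plots were drawn with python 3.11.15, pandas 2.3.3, numpy 2.4.6 and matplotlib 3.10.9.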

Additional observations from a re-analysis of the deposited data

Results flagged for a closer look

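For 87 of the probe sets described above the H3 and H4 tail effects differed by the test of their difference. Each is listed here with its H3 tail effect minus its H4 tail effect in log2. The word alone means that the other deletion did not pass its own test, which does not show that it had no effect. FUS3, for instance, is listed under H4del alone although its H3del arrays lay below its H3WT arrays. Where H4del alone was lower, the values were 7.90 for OLI1, 7.01 for COX1, 4.04 for RME1, 3.74 for MF(ALPHA)1, 3.26 for FUS3, 2.81 for NEJ1, 2.77 for STE18, 2.47 for RDH54, 1.96 for TIR4, 1.71 for PCL1, 1.57 for HSP26, 1.47 for AXL1, 1.43 for STE4, 1.35 for STE5, 1.35 for the probe set of HHF2 and HHF1, 1.17 for THI22, 1.15 for ATP16, 0.98 for ATP18, 0.74 for ADE12, 1.88 for SUL1, 1.47 for LYS9, 1.07 for RRP5 and 0.83 for MVD1. Where H3del alone was higher, they were 2.65 for ATR2, 2.18 for the probe set of DDI2 and DDI3, 2.10 for SNZ1, 2.04 for DAK2, 1.94 for ADH2, 1.92 for POT1, 1.89 for SPS2, 1.84 for RNR3, 1.79 for CAT2, 1.61 for THI4, 1.40 for BNA4, 1.22 for BIO3, 1.11 for BIO5, 1.03 for PHO3, 2.14 for YAR068W, 2.00 for SPG4 and 1.08 for FIT1. Where H3del was higher and H4del lower, they were 4.57 for FDH1, 3.30 for DAN1, 3.29 for MLS1, 3.05 for SSA3, 2.56 for the probe set of SNO2 and SNO3, 2.31 for PDC6, 2.29 for BIO4 and 2.03 for the probe set of SNZ2 and SNZ3. Where H4del alone was higher, they were -2.30 for SPO11, -2.14 for SNR73, -2.01 for NCA3, -1.97 for YGL204C, -1.94 for AIM4, -1.93 for YET2, -1.84 for CTO1, -1.84 for SHU2, -1.78 for RDN5-3, -1.76 for MCD4, -1.72 for SNR5, -1.59 for SNR128, -1.55 for SRD1, -1.08 for MRP20, -0.95 for MRPL13 and -0.67 for URA1. Where H3del alone was lower, they were -1.14 for PCL9, -1.09 for SCW11, -0.90 for CTS1, -1.72 for UBX6, -1.43 for HSK3, -1.23 for OTU1 and -1.10 for MSP1. Where H3del was lower and H4del higher, they were -2.14 for MRPL31 and -1.52 for BNA1. Among genes changed the same way by both deletions they were 2.85 for FAR1 and 1.14 for AFB1 (lower in both) and 1.29 for FRM2, 1.80 for YNR064C, 0.96 for HPF1 and -1.04 for TNA1 (higher in both). With neither effect called they were 2.14 for BAR1, 2.01 for ARO10, 1.16 for PTP1, 1.15 for AUS1 and -1.21 for YGR109W-B. In the fit without the filter they were 2.09 for COX3, 1.25 for COX2 and -3.58 for HMRA1.

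In 19 of 336 groups of 4 arrays of the named genes 1 array lay apart from the other 3. The criterion was Dixon's 95% criterion for a single outlying value, and chance gives about 1 in 20. Most of the arrays that lay apart were replicate 3 of H3del or H3WT, both hybridized on day 4. The part of the day in this was not tested. H3del replicate 3 lay apart for STE4 (2883), BAR1 (228), the probe set of DDI2 and DDI3 (1307), ARO9 (2166), INO1 (9987), MRP10 (1661), ORC1 (700.2) and PET18 (1159), and H3del replicate 4 for ATP6 (3.6), STE18 (466.0) and CLB1 (1678). H3WT replicate 3 lay apart for DAN1 (63.7), FRM2 (375.5), MRPL31 (1004.5), ADE2 (4012), FUI1 (423), and MPC2 (11299.6), H3WT replicate 2 for YAR068W (24.9) and H3WT replicate 4 for SNR73 (114.5). Groups of 3 arrays were not examined in this way.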

How the results depend on the processing

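No alternative that could be run turned the sign of the difference for any of the 87 called probe sets named here. Of these 56 had a value under every alternative, and 31 lacked at least 1, because they were too dim for the filter at the 30th or 50th percentile. The number of probe sets called was 239, and it was 369 after quantile normalization, 1056 with the replicate block, 1035 with the replicate block across strains, 1078 with the day block, 1184 with the day as a random block and 748 without the arrays of day 4. Without single arrays it ranged from 117 to 469. H3del against H3WT gave 498 calls, and 250 with the filter at the 50th percentile, 1047 with the replicate block, 1045 across strains, 1338 with the day block, 1304 with the random day block and 330 to 570 without single arrays. H4del against H4WT gave 1134, and 2130 with the replicate block, 2144 across strains, 1933 with the day block, 2124 with the random day block, 1774 without day 4 and 585 to 1498 without single arrays. H3WT against H4WT gave 221, and 135 with the filter at the 50th percentile, 511 with the replicate block across strains, 335 with the random day block, 669 without day 4 and 137 to 305 without single arrays. H3del against H4del gave 1555, and 2410 with the replicate block across strains, 2336 without day 4 and 776 to 1836 without single arrays. Of 84 called and tested named genes 38 kept the call without each array in turn and 46 lost it without at least 1 array, named beside each gene. No block ended a call among the named genes. Of 81 that were not called, 40 were called with the replicate block, 42 with it across strains, 37 with the day block, 46 with the random day block (SPO75 among them), 29 without day 4 (HO and GPA1 among them), 13 after quantile normalization, 8 after median centring, 5 without the trend and 3 with an offset of 1. Calls of 9 were lost without the filter (BAR1, SNR128, RDN5-3, ARO10, AUS1, HPF1, PTP1, UBX6 and YGR109W-B), of 10 after median centring (PHO3, ATP18, HSP26, ADE12, FIT1, HPF1, MVD1, PTP1, URA1 and YGR109W-B), of 5 after quantile normalization (TNA1, FIT1, MVD1, YGR109W-B and YNR064C), of 5 without the trend (TNA1, ADE12, HPF1, URA1 and YGR109W-B), that of UBX6 with the filter at the 50th percentile, and that of SNR128 with an offset of 1 and without day 4. The cause of these changes was not tested. Day 4 alone has 1 array per group and gives values without a test. H4WT replicate 2 was alone on its day and does not enter the values of the day block. Dim probe sets have folds that depend on the offset.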
